A study of Mus musculus with 24 samples.

Results

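The 9 genes described here were listed together as muscle ubiquitin ligases and ligase subunits. They are the RING-finger genes Trim54, Trim55 and Trim63, the F-box genes Fbxo32 and Fbxo40, and the ankyrin-SOCS genes Asb2, Asb4, Asb5 and Asb11. The name is that of the list: Asb4 is known from vascular and hypothalamic cells and had higher values in the folds than at E16.5. The list is one of gene names, with no rule on measured values, but it was chosen with earlier results of these data known. All 9 genes were found, each with 1 probe set, among the 19351 genes measured. The arrays hold RNA of embryonic diaphragm from C57BL/6J mice, with no mutation, transgene or treatment named in any group. Tissue was cut by laser from cryosections. At E11.5 and E12.5 it was pleuroperitoneal fold, the mesenchymal primordium of the diaphragm, and at E16.5 it was diaphragm after its muscle had formed. Each stage has 8 samples with 1 Affymetrix Mouse Gene 1.0 ST array each, 24 in all. The labels do not say which embryo a sample came from or whether embryos were pooled, so p-values measure the spread between these samples.

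Ubiquitin is passed from an E1 to an E2 enzyme and from there to a substrate chosen by an E3 ligase, and chains of ubiquitin send many substrates to the proteasome. The products of Trim63, Trim55 and Trim54, also called MuRF1, MuRF2 and MuRF3, are RING-finger ligases that sit on the sarcomere and on microtubules of muscle cells. Fbxo32 (atrogin-1) and Fbxo40 are substrate receptors of SCF ligases, which are built on Skp1 and Cul1, and ankyrin-SOCS proteins are receptors of ligases built on elongins B and C, Cul5 and Rnf7. Trim63 and Fbxo32 are best known for their rise in wasting adult muscle.

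All values are log2 intensities after RMA, a normalization that also summarises the probes of a set, so a difference of 1 is a change of 2-fold in signal. Levels were compared for the same gene between arrays and not between genes, since probe sets differ in brightness. Over all genes the array medians were 7.45 to 7.57 and the lower quartiles 6.40 to 6.64, and the median change between stages was -0.03, -0.02 and -0.08 from E11.5 to E12.5, E12.5 to E16.5 and E11.5 to E16.5. The tissue labels were set against marker lists. The mean of 10 skeletal muscle fibre markers was 8.09 to 9.01 at E11.5, 8.10 to 10.81 at E12.5 and 11.54 to 12.05 at E16.5. The mean of 14 hepatocyte markers was 6.72 to 6.96, 7.69 to 12.00 and 9.51 to 11.75, with E12.5 replicates 2 (12.00) and 4 (10.31) above the other fold arrays. The mean of 6 lung epithelium markers was 7.22 to 7.51, 7.11 to 7.37 and 7.65 to 8.66, and 3 of them rose from E12.5 to E16.5. The mean of 5 erythroid markers was 10.16 to 10.92, 9.57 to 11.05 and 7.69 to 8.74, and 2 of them fell. Within E16.5, replicates 1 to 4 stood apart from 5 to 8: 1244 genes were higher and 994 lower in replicates 1 to 4 without overlap. Results that rest on these arrays are given with and without them.

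Between E12.5 and E16.5, 8 of the 9 ligase genes rose and Asb4 fell. Between E11.5 and E12.5 none of the 9 passed the test, and 1, Trim55, had an unadjusted p under 0.05. The test was limma over all genes with Benjamini-Hochberg adjustment and a threshold of 0.05. By that rule 11.49% of all genes rose and 15.6% fell from E12.5 to E16.5. The median change of the 9 genes was 1.36. In 6 of the 9 every E16.5 array lay above every E12.5 array, which held for 4.69% of all genes, and in Asb4 every E16.5 array lay below, which held for 5.4%. Against E11.5 the counts were the same, 8 higher and 1 lower with a median of 1.14, and again 6 genes were higher and 1 lower without overlap. There 13.8% of all genes rose, 19.6% fell, 5.22% were higher without overlap and 3.86% lower. Both comparisons use the E16.5 arrays. In a tissue sample, fewer cells of a type and less RNA per cell cannot be told apart, and muscle fibre markers rose over the same interval, 9 of 10 past the threshold from E12.5 to E16.5. The part of the fibre content in the changes of the ligase genes was not tested across these stages, since the marker means of E16.5 and the folds do not overlap.

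**Figure D1:**
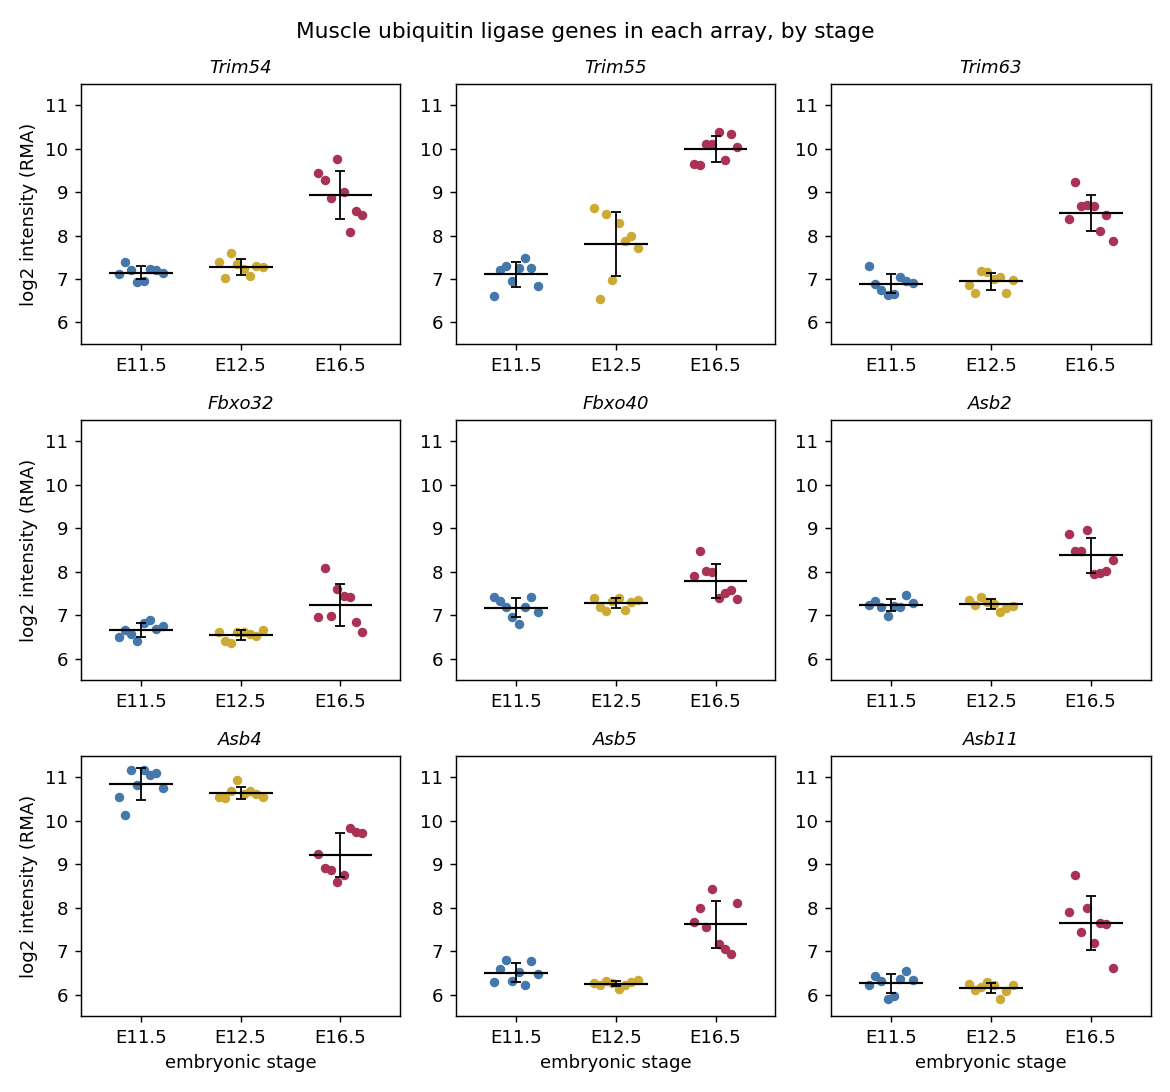
Log2 intensity (vertical axis) of the 9 ligase genes in each array, by embryonic stage (horizontal axis); points are arrays, the long bar is the mean and the whiskers are the SD over 8 arrays. Trim55 goes from a mean of 7.11 at E11.5 to 10.00 at E16.5, Fbxo32 and Fbxo40 overlap between stages, and Asb4 is the gene whose E16.5 arrays all lie below the fold arrays.

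Windows of 250 bases before the RefSeq start sites (GRCm38.p6) were found for 7 of the 9 genes, 12 windows in all; none was used for Trim55 and Fbxo32. They were searched for the E-box CANNTG, the site class of MyoD-family factors, which reads the same on both strands, for the FOXO site GTAAACA and for the MEF2 consensus, the last 2 on both strands. The 4 windows below are shown because they belong to 2 RING-finger genes that rose together, to an F-box gene, and to the gene that fell; capitals mark the motifs found. They lie at chr4:134314870-134315119 (plus strand), chr5:31116362-31116611 (plus), chr16:36990468-36990717 (minus) and chr6:5383136-5383385 (plus) and are written 5′ to 3′ along the gene.
Trim63: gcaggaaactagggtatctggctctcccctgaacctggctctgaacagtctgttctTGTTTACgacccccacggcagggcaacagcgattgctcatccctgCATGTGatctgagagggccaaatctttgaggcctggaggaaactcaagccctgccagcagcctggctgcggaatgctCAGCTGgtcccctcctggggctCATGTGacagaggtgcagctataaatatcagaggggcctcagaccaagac
Trim54: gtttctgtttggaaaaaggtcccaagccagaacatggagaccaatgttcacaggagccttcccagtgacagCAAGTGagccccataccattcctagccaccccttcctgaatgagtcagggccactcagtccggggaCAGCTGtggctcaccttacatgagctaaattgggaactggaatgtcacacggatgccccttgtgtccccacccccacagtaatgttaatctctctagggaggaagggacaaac
Fbxo40: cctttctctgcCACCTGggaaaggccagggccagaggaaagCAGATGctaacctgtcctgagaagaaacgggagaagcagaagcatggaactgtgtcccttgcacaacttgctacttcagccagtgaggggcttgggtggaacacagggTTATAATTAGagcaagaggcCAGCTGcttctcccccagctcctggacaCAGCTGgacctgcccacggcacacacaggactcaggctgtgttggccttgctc
Asb4: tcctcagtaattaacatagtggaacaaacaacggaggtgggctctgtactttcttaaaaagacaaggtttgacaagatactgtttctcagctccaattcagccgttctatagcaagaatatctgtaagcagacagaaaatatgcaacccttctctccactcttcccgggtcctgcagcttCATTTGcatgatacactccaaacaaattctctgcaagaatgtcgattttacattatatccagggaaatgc
Trim63 has 3 E-boxes, starting 149, 72 and 50 bases before the start site, and the FOXO letters on the other strand (TGTTTAC) at 194. Trim54 has 2 E-boxes, at 179 and 113. The letters CAGCTG occur in Trim63, Trim54 and Fbxo40. They occur in no window of Asb2, Asb5 or Asb11, which also rose, nor in one of Asb4. Their share over all windows was not counted. The Fbxo40 window shown, the first of 2, has 4 E-boxes, at 239, 209, 81 and 53, and a MEF2 match at 101. The second has 2 E-boxes and no MEF2 match. The Asb4 window shown, also the first of 2, has 1 E-box, at 70, and the second has 2. At least 1 E-box was present in 10 of the 12 windows. Each of the 7 genes had an E-box in some window, but several of them have more than 1 window. The share of all genes with an E-box in any window was not counted. The windows without an E-box belong to Asb2 and Asb5, genes that rose. Of 32851 windows of the same length over all genes, 66.2% hold an E-box and 3.84% hold 4 or more. FOXO letters were in 1 of the 12 windows against 3.17% of all windows, and MEF2 letters in 2, of Fbxo40 and Asb5, against 1.69%. Letters that match are a description and do not show that a factor binds there.

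The muscle RING-finger genes had the 3 largest rises of the 9 genes by point value. Trim55 encodes MuRF2, a ligase that binds titin and microtubules while sarcomeres assemble. Its lowest, median and highest values were 6.60, 7.24 and 7.48 at E11.5, 6.54, 7.93 and 8.64 at E12.5, and 9.62, 10.07 and 10.39 at E16.5. The E16.5 arrays lay above all fold arrays, while E12.5 reached both below and above the E11.5 range. The rise from E12.5 to E16.5 was 2.19 ± 0.23 (log2, SE, n = 8 per stage), 4.55-fold (limma, adjusted p = 5.33e-08), and from E11.5 it was 2.88 ± 0.23, or 7.38-fold (adjusted p = 3.08e-10).

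Trim54 encodes MuRF3, which binds and stabilises microtubules in muscle. It read 6.93, 7.17 and 7.39 at E11.5, 7.03, 7.29 and 7.60 at E12.5, and 8.09, 8.93 and 9.76 at E16.5. The fold stages overlapped and every E16.5 array was higher, by 1.65 ± 0.16 over E12.5 (3.14-fold, limma, adjusted p = 2.52e-08). Trim63 encodes MuRF1, which ubiquitylates thick filament proteins. Its values were 6.63, 6.90 and 7.29 at E11.5, 6.68, 6.99 and 7.18 at E12.5, and 7.87, 8.58 and 9.24 at E16.5. This again left a gap between the folds and the diaphragm, with a rise of 1.57 ± 0.14 over E12.5 (2.97-fold, limma, adjusted p = 4.34e-09).

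Within this family the within-array difference between genes was tested, 30 such tests over the families and stages being adjusted together. From E11.5 to E16.5 Trim55 rose more than the other RING-finger genes: Trim54 minus Trim55 changed by -1.10 (exact permutation test, two-sided, p = 0.000466, adjusted 0.0020) and Trim55 minus Trim63 by 1.26 (p = 0.000622, adjusted 0.00233). From E12.5 to E16.5 these differences were -0.54 (adjusted p = 0.212) and 0.62 (adjusted p = 0.151) by the same exact test. Trim54 and Trim63 differed by 0.16 from E11.5 to E16.5 (exact permutation p = 0.375), which does not show that they rose alike. Without E16.5 replicates 1 to 4 the E12.5 to E16.5 values of Trim54 minus Trim55 and Trim55 minus Trim63 were -1.06 and 0.97 (adjusted p = 0.0121 and 0.0331, exact permutation test), past the threshold, and without E16.5 replicate 2 alone Trim55 minus Trim63 was 0.77 (adjusted p = 0.0373). From E11.5 to E12.5 no pair of this family passed with all arrays; without E12.5 replicate 2, Trim54 minus Trim55 was -0.71 and Trim55 minus Trim63 0.79 (adjusted p = 0.0252 and 0.0356, exact permutation test), and without E12.5 replicate 4 they were -0.69 and 0.79 (adjusted p = 0.0339 each).

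Trim55 was also the gene of the 9 with the largest difference between the fold stages, 0.70 ± 0.23 (95% interval 0.23 to 1.17). That difference had p = 0.00537 and an adjusted p of 0.179 in limma, where 0.331% of all genes passed as higher and 0.0568% as lower, and p = 0.0267 in the exact permutation test of this gene alone. In replicate order the E12.5 arrays read 8.64, 6.54, 8.49, 6.97, 8.28, 7.88, 7.98 and 7.71. Replicates 2 and 4 were thus within or below the E11.5 range and the other 6 were above every E11.5 array. Those same replicates had the highest hepatocyte marker means at that stage, given above. Without replicate 2 the difference was 0.88 and passed the threshold (adjusted p = 0.0287), and with the hepatocyte mean as a covariate it was 1.52 (limma, adjusted p = 0.00143). Without replicate 4 it was 0.82 and did not pass (adjusted p = 0.117). Of 37 alternative limma fits 2 passed, the one without replicate 2 and the one with the covariate. Without replicates 2 and 3 together it was 0.80 (limma, adjusted p = 0.0840). The hepatocyte mean did not overlap between E11.5 (6.72 to 6.96) and E12.5 (7.69 to 12.00). The value of 1.52 thus compares these stages at no marker level that both have.

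Muscle fibre markers varied over the same arrays. Their mean in E12.5 replicates 1 to 8 was 9.47, 8.10, 10.81, 9.17, 8.99, 9.34, 8.91 and 9.18, so the lowest fibre mean fell in replicate 2 and the highest in replicate 3. Trim55 followed it with r = 0.67 (exact permutation p = 0.0685) and rho = 0.62 (exact p = 0.115, n = 8), and r was 0.22 without replicates 2 and 3, on which the relation rests. Trim54 had r = 0.84 at E12.5 (exact p = 0.0176; rho = 0.64, exact p = 0.0962), which became 0.02 without the same pair. At E11.5 the signs and sizes were different, with r = -0.43 for Trim55 (exact p = 0.295; rho = -0.05, exact p = 0.935) and r = 0.29 for Trim54 (exact p = 0.491; rho = 0.40, exact p = 0.327). Fbxo40 at E11.5 had r = 0.77 (exact p = 0.0194) and rho = 0.86 (exact p = 0.0107), and r = 0.71 without the 2 arrays farthest from the median, while at E12.5 it had r = -0.35 (exact p = 0.441) and rho = -0.10 (exact p = 0.840). Trim63 had the same sign in both stages. At E11.5 it had r = 0.76 (exact p = 0.0285) and rho = 0.57 (exact p = 0.151). At E12.5 it had r = 0.70 (exact p = 0.0444) and rho = 0.62 (exact p = 0.115). Without the 2 arrays farthest from the median of each stage, its r was 0.21 and 0.29. Of the 18 relations computed, 9 genes in both fold stages, the lowest adjusted p was 0.171.

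**Figure D2:**
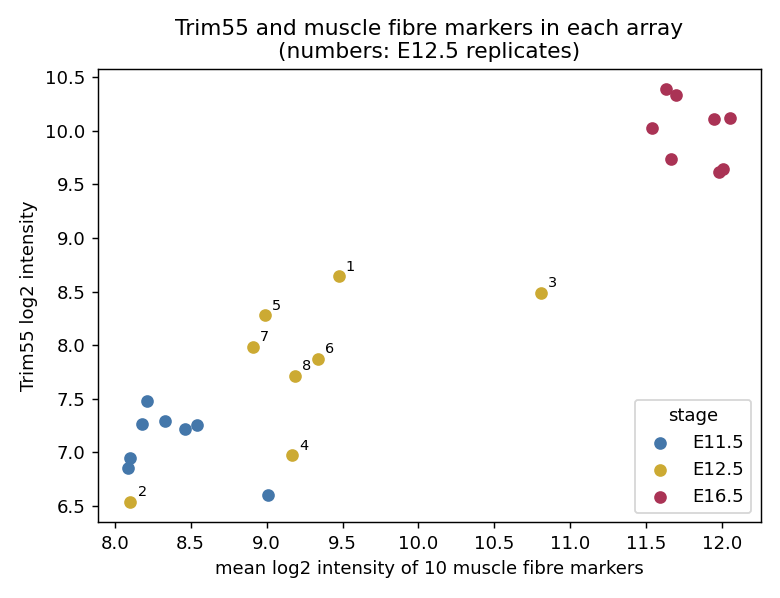
Trim55 log2 intensity (vertical axis) against the mean log2 intensity of 10 skeletal muscle fibre markers (horizontal axis) in each of the 24 arrays, coloured by stage, with E12.5 replicate numbers. E12.5 replicate 2 (8.10, 6.54) has a fibre marker mean within the E11.5 range and a Trim55 value below every E11.5 array. The 8 E16.5 arrays form a group of their own with Trim55 at 9.62 to 10.39.

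The F-box genes had the smallest changes of the 9 by point value in both comparisons with E16.5. Fbxo32 encodes atrogin-1, the receptor of an SCF ligase with MyoD and eIF3f among its reported substrates. It read 6.40, 6.66 and 6.88 at E11.5, 6.36, 6.58 and 6.66 at E12.5, and 6.61, 7.20 and 8.08 at E16.5. The stages overlapped: 7 of 8 E16.5 arrays were above all E12.5 arrays and 6 above all E11.5 arrays. It rose by 0.69 ± 0.14 from E12.5 (1.62-fold, limma, adjusted p = 0.000559) and by 0.58 ± 0.14 from E11.5 (adjusted p = 0.00270). Fold values were near the dim end of the arrays, below the array's lower quartile in 1 array of E11.5 and 2 of E12.5.

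Fbxo40, whose product targets the insulin receptor substrate Irs1, read 6.80, 7.18 and 7.42 at E11.5, 7.10, 7.32 and 7.39 at E12.5, and 7.36, 7.75 and 8.48 at E16.5. Here too 7 of the 8 E16.5 arrays were above all E12.5 arrays and 6 above all E11.5 arrays. The rise from E12.5 was 0.51 ± 0.13 (1.42-fold, limma, adjusted p = 0.00369) and from E11.5 0.61 ± 0.13 (adjusted p = 0.000589). It rested on E16.5 replicates 1 to 4, which read 7.91 to 8.48 against 7.36 to 7.58 in replicates 5 to 8; without the former the change from E12.5 was 0.19 (adjusted p = 0.253), and the change from E11.5 was 0.29, barely past the threshold. With the hepatocyte mean as a covariate the changes from E11.5 of Fbxo32 and Fbxo40 were 0.68 and 0.71 and did not pass (limma, adjusted p = 0.215 and 0.135). That marker mean does not overlap between E11.5 and E16.5. The changes of Fbxo32 and Fbxo40 from E11.5 to E16.5 differed by -0.03 (exact permutation p = 0.867).

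**Figure D3:**
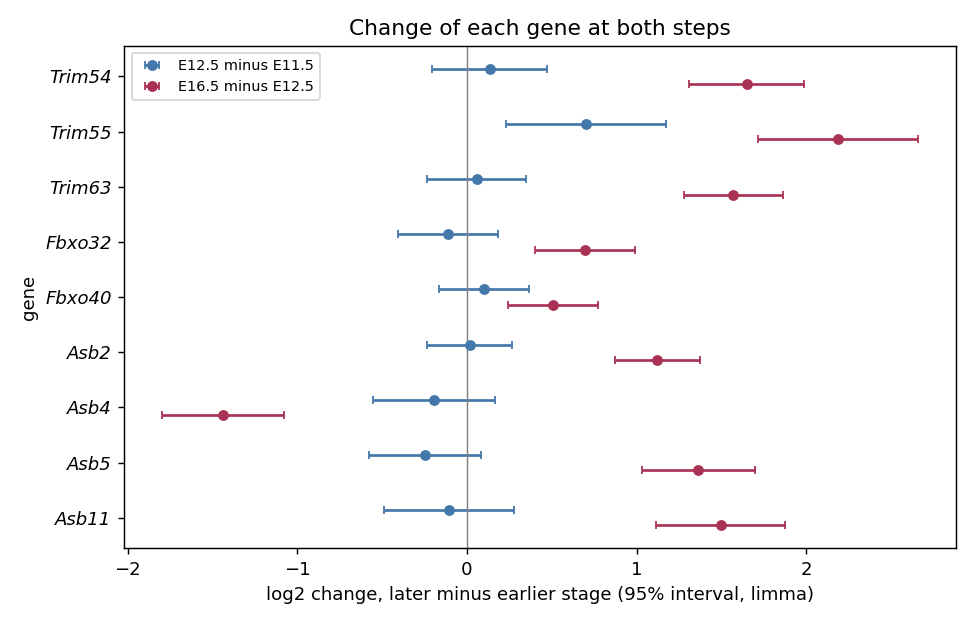
Log2 change of each ligase gene (horizontal axis, with its 95% interval from limma) from E11.5 to E12.5 and from E12.5 to E16.5; genes are on the vertical axis. The E11.5 to E12.5 interval reaches across 0 in every gene but Trim55 (0.23 to 1.17), and the E12.5 to E16.5 interval of Asb4 (-1.80 to -1.08) is the one below 0.

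The ankyrin-SOCS genes split. Asb2 encodes a receptor whose muscle isoform targets filamins. It read 6.99, 7.23 and 7.46 at E11.5, 7.08, 7.23 and 7.42 at E12.5, and 7.94, 8.37 and 8.96 at E16.5, with every E16.5 array above the folds. It rose by 1.12 ± 0.12 from E12.5 (2.18-fold, limma, adjusted p = 8.31e-08). At E16.5 replicates 1 to 4 read 8.48 to 8.96 and replicates 5 to 8 read 7.94 to 8.27, and both sets were above all fold arrays. Asb2 and Fbxo40 were the 2 of the 9 genes in which these sets did not overlap with replicates 1 to 4 higher, which held for 6.43% of all genes.

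Asb5, described in muscle precursors and in growing arteries, read 6.22, 6.49 and 6.80 at E11.5, 6.13, 6.26 and 6.33 at E12.5, and 6.94, 7.61 and 8.43 at E16.5. Asb11, described in muscle progenitors, read 5.89, 6.32 and 6.55, then 5.90, 6.19 and 6.28, then 6.60, 7.64 and 8.75. In both genes each E16.5 array was above each fold array. Their fold values were mostly at the dim end: Asb5 lay below its array's lower quartile in 6 arrays of E11.5 and 8 of E12.5, and Asb11 in all 8 of each. The rises from E12.5, 1.36 ± 0.16 for Asb5 (limma, adjusted p = 3.85e-07) and 1.49 ± 0.18 for Asb11 (adjusted p = 7.60e-07), may therefore understate the change. Endothelial markers moved with them: 10 of 12 rose from E12.5 to E16.5, against 11.49% of all genes. The mean of that list was 7.80 to 8.24 at E12.5 and 8.15 to 9.20 at E16.5. The part of endothelium in the rise of Asb5 was not tested.

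Asb4, known from vascular and hypothalamic cells, was the gene that fell. It read 10.14, 10.94 and 11.17 at E11.5, 10.52, 10.62 and 10.95 at E12.5, and 8.60, 9.08 and 9.84 at E16.5. All E16.5 arrays lay below all fold arrays, and E12.5 lay inside the E11.5 range. It fell by 1.44 ± 0.17 from E12.5, a 2.71-fold change (limma, adjusted p = 5.58e-07), and by 1.63 from E11.5, a 3.10-fold change. Of the E16.5 arrays, replicates 6, 7 and 8 kept the highest values (9.84, 9.75 and 9.73) and the other 5 read 8.60 to 9.25. From E12.5 to E16.5, Asb2 minus Asb4 changed by 2.56, Asb4 minus Asb5 by -2.80 and Asb4 minus Asb11 by -2.93 (exact permutation p = 0.000155 each, the smallest that 8 against 8 arrays can give, adjusted 0.000777). Endothelial markers went the other way, as given above, while markers of mesothelium and fold mesenchyme fell in 6 of 10 cases. The mean of those 10 was 8.85 to 9.19 at E12.5 and 7.94 to 8.44 at E16.5, and Pdgfra (-1.59), Wt1 (-1.44) and Osr1 (-1.40) were among those that fell. In the same list Msln, a mesothelial marker, rose by 0.74 ± 0.11, and Tcf21 (0.12), Tbx18 (-0.36) and Upk3b (-0.42) did not pass. These counts stand beside 15.6% of all genes that fell. In other lists 2 of 5 erythroid, 2 of 8 neuron, 1 of 4 Schwann cell and 1 of 10 cardiomyocyte markers fell. Counts from lists this short do not show that a cell type fell. In the cardiomyocyte list 2 rose. The erythroid mean was 9.57 to 11.05 at E12.5 and 7.69 to 8.74 at E16.5. The part of the fold mesenchyme or of these other cell types in the fall of Asb4 was not tested.

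Asb2, Asb5 and Asb11 did not separate from each other: their differences in the change from E12.5 to E16.5 were -0.37 to -0.13, with adjusted p of 0.164 or more in the exact permutation test. Asb2 minus Asb11 passed without E16.5 replicate 8 (-0.51, adjusted p = 0.00414, exact permutation test) and without E16.5 replicates 5 to 8 (-0.43, adjusted p = 0.0485). Between the fold stages, the difference Asb2 minus Asb5 was higher at E12.5 by 0.26 (exact permutation p = 0.00373, adjusted 0.0124), with Asb5 below the lower quartile in all 8 E12.5 arrays; after quantile normalization again it was 0.20 (adjusted p = 0.0596). Asb5 alone differed by -0.25 there (exact permutation p = 0.00746; limma, adjusted p = 0.483).

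The other 14 ankyrin-SOCS genes were measured as a list. From E12.5 to E16.5, 4 rose, 0 fell and 10 did not pass, with a median of 0.17. Asb12 rose by 4.63 ± 0.31, from 4.93 to 5.87 over the E12.5 arrays to 8.23 to 11.22 at E16.5. Asb15 rose by 1.26 ± 0.20, Asb8 by 1.14 ± 0.18 and Asb14 by 0.63 ± 0.13. Asb12, Asb14 and Asb15 were below the lower quartile in all 8 E12.5 arrays, so these changes too may be understated. Asb9, the nearest gene to Asb11 on the X chromosome in RefSeq order, had -0.32 ± 0.13 from E12.5 (adjusted p = 0.0756) and fell by 0.46 ± 0.13 from E11.5 to E16.5 (limma, adjusted p = 0.00820), with 7 of its 8 E16.5 arrays below the lower quartile.

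**Figure D4:**
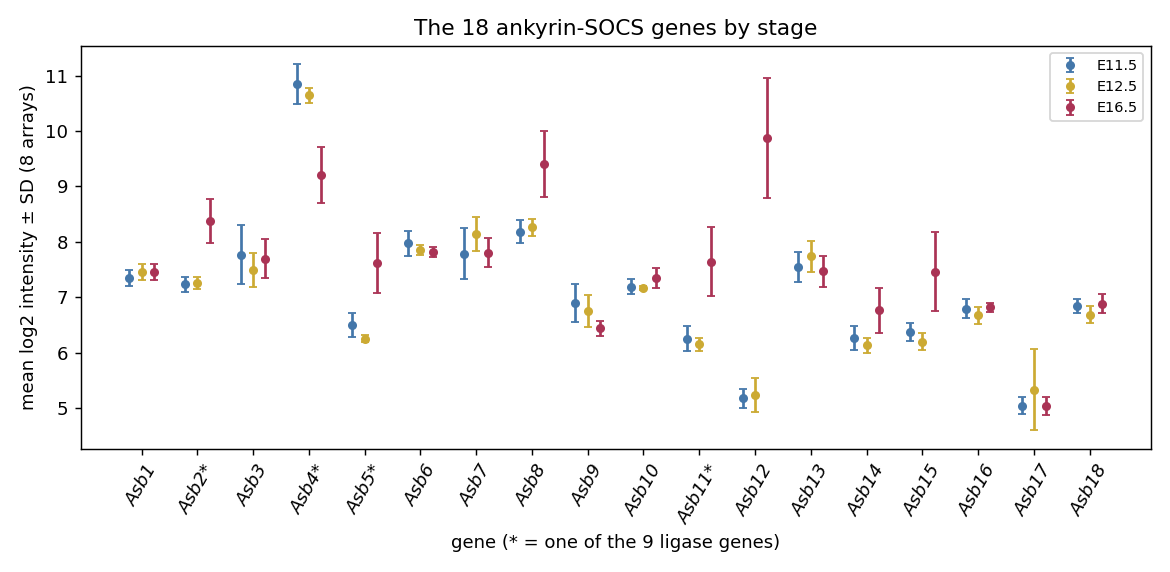
Mean log2 intensity with SD over 8 arrays (vertical axis) of the 18 ankyrin-SOCS genes measured (horizontal axis), by stage; asterisks mark the 4 genes described in full. Asb2, Asb5, Asb11, Asb8, Asb12, Asb14 and Asb15 are higher at E16.5 than at E12.5 and Asb4 is lower, as passed by limma; Asb9 is lower at E16.5 than at E11.5.

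The genes that work with the ligases are given by list, to be read beside the 11.49% of all genes that rose and the 15.6% that fell from E12.5 to E16.5. Of 12 scaffolds and adaptors of cullin ligases 1 rose and 2 fell from E12.5 to E16.5, with a median of -0.02. Cul1 (-0.05), Skp1 (-0.13) and Rbx1 (-0.08), the shared parts of SCF ligases, did not pass, nor did Cul5 (0.32), Rnf7 (0.04), Eloc (0.01) and Elob (-0.08), the shared parts of ankyrin-SOCS ligases. The 95% intervals of Cul1, Skp1, Rbx1, Rnf7, Eloc and Elob stayed between -0.29 and 0.17, and that of Cul5 was 0.03 to 0.61. From E11.5 to E16.5 Cul5 rose by 0.81 ± 0.14. Cand1, which exchanges the receptors on Cul1, fell by 0.81 ± 0.12 from E12.5, Nedd8, the modifier that activates cullins, fell by 0.20 ± 0.06, and Ube2f, the Nedd8-conjugating enzyme used for Cul5, rose by 0.31 ± 0.09.

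Of 15 E1 and E2 genes, 4 rose and 2 fell from E12.5 to E16.5, with a median of -0.12. Cdc34, an E2 enzyme of SCF ligases, rose by 0.90 ± 0.11, Ube2g2 by 0.77 and Ube2b by 0.58. The E1 gene Uba6 fell by 0.65 and the E2 gene Ube2r2 by 0.55. Among 11 deubiquitylating enzymes described in muscle 5 rose and 3 fell (median 0.11), with Usp2 at 1.89 ± 0.19, Usp13 at 1.74 ± 0.17 and Uchl1 at -0.83 ± 0.23.

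Other ubiquitin ligases described in muscle gave 7 higher, 4 lower and 9 not past the threshold of 20, with a median of 0.17. The largest rises were in 3 of the 4 Kelch genes listed, a family whose products serve as receptors of Cul3 ligases: Klhl31 rose by 3.50 ± 0.40, Klhl41 by 2.95 ± 0.36 and Klhl40 by 2.44 ± 0.20. The other Kelch gene, Kbtbd13, had 0.23 ± 0.10 (adjusted p = 0.0978) and lay below the lower quartile in 6 or 7 arrays of each stage. Fbxo21 fell by 0.99 ± 0.20, and Trim32, a ligase of thin filament and Z-disc proteins, fell by 0.91 ± 0.21. Of 8 further genes with a COS box, a microtubule-binding motif that the RING-finger proteins described here share, 2 rose and 1 fell (median 0.00): Fsd2 rose by 4.01 ± 0.24, Mid2 rose by 1.31 ± 0.24 and Mid1 fell by 0.75 ± 0.10.

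Reported substrates and binding partners gave 10 higher and 3 lower of 16 from E12.5 to E16.5 (median 1.09). The thick filament genes Myl2 (4.94 ± 0.56), Myl1 (4.19 ± 0.33) and Mybpc1 (4.10 ± 0.30), creatine kinase Ckm (3.77 ± 0.24) and titin, Ttn (2.59 ± 0.29), rose. Of the filamins, Flnc rose by 1.21 ± 0.14 and Flna fell by 1.17 ± 0.09. Myod1, a reported substrate of Fbxo32, rose by 0.74 ± 0.16 from E11.5 to E12.5 (limma, adjusted p = 0.0370). It fell by 0.52 ± 0.16 from E12.5 to E16.5 (adjusted p = 0.0143). Eif3f, also a reported substrate of Fbxo32, had -0.14 ± 0.08 from E12.5 to E16.5 (limma, adjusted p = 0.209). Irs1, the target of Fbxo40, rose by 0.97 ± 0.17 over the same interval (limma, adjusted p = 6.46e-05). All 32 sarcomere genes measured rose from E12.5 to E16.5 with a median of 3.06, and 10 of them had risen from E11.5 to E12.5.

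Of 21 reported regulators of ligase genes, 8 rose and 3 fell from E12.5 to E16.5 (median 0.14). The FOXO factors, which drive Trim63 and Fbxo32 in wasting muscle, did not pass: Foxo1 had -0.11, Foxo3 0.05, Foxo4 0.14 and Foxo6 -0.02. The glucocorticoid receptor gene Nr3c1 rose by 1.27 ± 0.16, its target Klf15 by 0.43 ± 0.11, Mef2c by 1.21 ± 0.17, Mstn by 1.79 ± 0.34 and Ppargc1a by 3.16 ± 0.20. Smad3 fell by 0.76 ± 0.11. Myog, which encodes myogenin and is described upstream of Trim63 and Fbxo32 in denervated muscle, had 0.36 ± 0.14 (adjusted p = 0.0690). Between the fold stages Mef2c (1.15 ± 0.17, adjusted p = 0.00180) and Myod1 rose. No cullin, E2, deubiquitylating, further ankyrin-SOCS, further COS-box or other ligase gene of these lists passed limma between the fold stages, where 75 of 19351 genes did; unadjusted, 13 of the 80 genes (16.2%) had p under 0.05, against 14.4% of all genes.

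**Figure D5:**
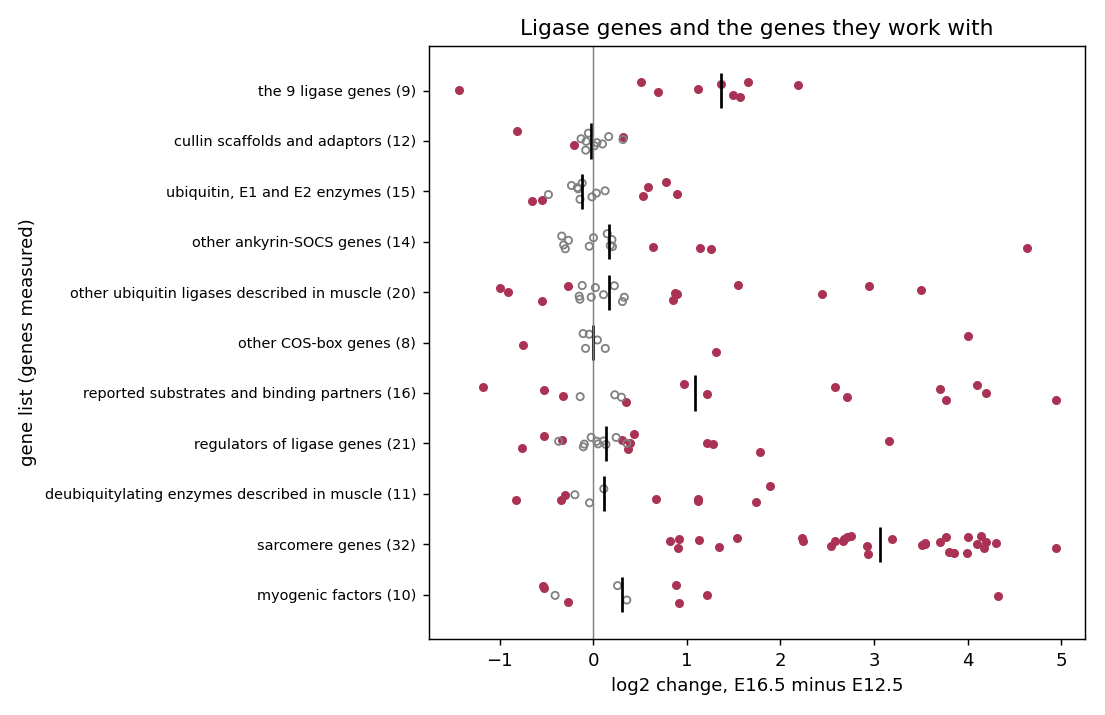
Log2 change from E12.5 to E16.5 (horizontal axis) of each gene in the 9 ligase genes and in 10 lists of companion genes (vertical axis, genes measured in brackets); filled points passed limma at an adjusted p under 0.05, open points did not, and the black bar is the median. The median is 1.36 for the 9 ligase genes, -0.02 for cullin scaffolds and adaptors and 3.06 for sarcomere genes.

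The genes with profiles most like each ligase gene were found by the root mean square difference over the 24 arrays after centring each gene, in log2 units. The nearest to Trim54 were Crat (0.18), Coro6 (0.19) and Rab40b (0.21), and to Trim63 they were Unc45b (0.18), Rab40b (0.21) and Coq9 (0.22). Rab40b was thus near both, and Trim54 and Trim63 lay 0.29 from each other. Trim55 had no gene nearer than 0.41, the value of Mhrt, Sync and, at 0.42, Tbx15. For Fbxo32 they were Mpp3 (0.21), Wfdc1 (0.24) and Trim47 (0.24), and for Fbxo40 Neurl1a (0.17), Klf15 (0.17) and Atp5a1 (0.18).

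Asb2 and Asb5 shared their nearest gene, Camk2b (0.17 and 0.21), and lay 0.25 apart. Asb11 was nearest to Synpo2l (0.25), Unc45b (0.25) and Trim72 (0.26). Asb4 was nearest to Cdh11 (0.29), a cadherin of mesenchyme, Polr3k (0.31) and the cell cycle kinase gene Cdk4 (0.31), all of which have negative changes from E12.5 to E16.5 (-1.31, -1.23 and -1.31); no other ligase gene came nearer to it than 1.12. These distances reflect the stage differences above and give no independent test.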

How the data were processed

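RNA of 24 laser-captured tissue samples, 8 per stage, was amplified and hybridised to Affymetrix Mouse Gene 1.0 ST arrays, and samples were grouped by the stage in their labels. The authors deposited log2 intensities from RMA, with a single value for each probe set in each array; the log2 scale was read from the values. Affymetrix Expression Console 1.1 and R 2.9.2 are also named, per the submitters' processing notes, without their roles, and whether all arrays were normalized together is not given in the sources used here. Arrays have no read depth: their number limits the precision.

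Of 24200 probe sets, 20760 have 1 gene symbol in the platform annotation, 1140 several and 2300 none; those with 1 were used. Where a gene had more than 1 probe set (804 genes), the brightest on average over the arrays stood for it, which left 19351 genes. No gene was removed for low values. All 24 arrays entered a limma 3.58.1 model (R 4.3.3; lmFit and eBayes) with a coefficient for each stage, tested two-sided with Benjamini-Hochberg adjustment over all genes and a threshold of 0.05. Differences between genes of a family used exact permutation tests in Python 3.11.15, adjusted over 30 tests. The fitting step was tested on simulated data.

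The 9 genes, the 10 companion lists and the 11 marker lists were chosen with earlier results of these data known. Of 271 list entries, 253 were matched. Named genes were the 9 ligase genes, the cullins and adaptors of the SCF and Cul5 complexes, and the 3 nearest profiles per gene. From each list came up to 4 genes with the largest changes past the threshold from E12.5 to E16.5. Further list members were named outside that rule, after their values were seen. They were the FOXO factors, Klf15, Myog, Flna, Flnc, Myod1, Eif3f, Irs1, Asb9 and Kbtbd13. The others were Ttn, Smad3, Fbxo21, Trim32, Uchl1, Ube2r2 and the markers of mesothelium and fold mesenchyme. Replicate numbers 1 to 8 recur in each stage; deviations of same-numbered arrays from their stage means correlated by -0.28 to 0.09, with 0 pairs over 0.1, so the numbers were not taken to pair arrays. Alternatives were other scalings, filters, moderation, array weights, a replicate block, a hepatocyte covariate and arrays left out.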

Additional observations from a re-analysis of the deposited data

Results flagged for a closer look

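Among the 27 groups of 8 arrays formed by the 9 genes and 3 stages, 1 array stood far from the rest by Dixon's criterion. Asb4 in E12.5 replicate 4 read 10.95, above the other 7 arrays of that stage, which read 10.52 to 10.70. Chance alone marks about 1 in 20 such groups.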

How the results depend on the processing

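From E12.5 to E16.5 and from E11.5 to E16.5 each of the 9 genes kept its direction in all alternatives run, and of 1026 alternative values of the 9 genes' changes 1019 kept their side of the threshold, 3 lost it and 4 gained it. Among the gains, Trim55 and Asb5 from E11.5 to E12.5 in the exact permutation test rest on p-values of single genes that are not adjusted; the other gains were both Trim55 in limma fits. The 3 losses were Fbxo40 from E12.5 to E16.5 without E16.5 replicates 1 to 4, and Fbxo32 and Fbxo40 from E11.5 to E16.5 with the hepatocyte covariate; the causes were not tested. The number of the 9 genes changed from E11.5 to E12.5 was 1 with that covariate and 0 to 1 with single arrays left out.

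The count of all genes changed from E11.5 to E12.5 (75) was 120 with array weights, 9 with only those stages fitted, 49 after quantile normalization again, 43 with the replicate block, 32 and 34 without E16.5 replicates 1 to 4 and 5 to 8, and 26 to 151 with single arrays left out. The replicate block changed no call of the 9 genes. From E12.5 to E16.5 it was 3479 (5241) without E16.5 replicates 1 to 4, and from E11.5 to E16.5 4265 (6479) without them and 1811 with the hepatocyte covariate. For companion genes from E11.5 to E12.5 (12 changed) it was 1 with only those stages fitted, 19 without E12.5 replicates 2 and 3, 5 without either set of E16.5 arrays, and 5 to 22 with single arrays left out; from E11.5 to E16.5 (94) it was 59 with the covariate.

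Differences within families past the threshold from E11.5 to E12.5 (1) numbered 0 after quantile normalization again and 1 to 3 with single arrays left out (Asb2 minus Asb11 was 0.16 without E11.5 replicate 5, Asb2 minus Asb4 0.32 without E11.5 replicate 2 and Fbxo32 minus Fbxo40 -0.27 without E11.5 replicate 1, each past the threshold), and from E12.5 to E16.5 (3) they numbered 5 without E16.5 replicates 1 to 4. Fewer arrays enter the fits that leave arrays out; the other causes were not tested. The share of changed genes that were higher was 85.3% from E11.5 to E12.5 and 42.4% from E12.5 to E16.5; with arrays centred on the 75th percentile it was 51.6% and 50.9%, and with median centring 62.7% for the first of these. Signal in the folds was dim for Asb5, Asb11, Asb12, Asb14, Asb15 and Fsd2, and in some fold arrays for Fbxo32. Their changes may therefore be compressed toward 0, which was not tested.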

Other observations

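Genes next to the ligase genes in RefSeq order were measured as well. Pdk4, which encodes a kinase that inhibits pyruvate dehydrogenase and lies next to Asb4 on chromosome 6, rose from E12.5 to E16.5 by 3.31 ± 0.19 (limma, adjusted p = 2.70e-12), from a mean of 5.78 to 9.09, with no overlap between the stages, while Asb4 fell by 1.44. On the other side of Asb4, the paraoxonase gene Pon2 rose by 0.69 ± 0.17 (adjusted p = 0.00268). Klhl38, a Kelch gene next to Fbxo32 on chromosome 15, rose by 0.91 ± 0.13 (adjusted p = 3.70e-06), without overlap, against 0.69 ± 0.14 for Fbxo32 itself. The nearest genes on either side of Trim54, Dnajc5g and Ucn, had 0.18 ± 0.08 and -0.06 ± 0.07, and neither passed the threshold (adjusted p = 0.101 and 0.600). These neighbours were chosen after their values were seen from the 4 nearest measured genes of each ligase gene.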
